A study of Mus musculus with 10 samples.

Results

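The sites compared were the places in the genome where MyoD and Myf5 were both called bound, taken as pairs of peaks in which 1 MyoD peak overlapped exactly 1 Myf5 peak, by at least 1 bp, and that Myf5 peak overlapped no other MyoD peak. There were 41159 such pairs, which held 91.4% of the 45015 MyoD peaks and 43.9% of the 93787 Myf5 peaks. Of the MyoD peaks outside the pairs, 2729 were part of multiple overlaps and 1127 overlapped no Myf5 peak. Of the Myf5 peaks outside the pairs, 1891 were part of multiple overlaps and 50737 overlapped no MyoD peak. A site that fell under the calling threshold for 1 factor was therefore not a pair, however strong it was for the other. The question put to the pairs was which sites stood higher in the order of binding strength for 1 factor than for the other, and what else set those sites apart.

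All samples were mouse embryonic fibroblasts of genotype MyoD-/-; Myf5-/-, so neither factor came from its own gene and each was supplied by a lentivirus. Cells received MyoD, Myf5 or GFP (green fluorescent protein, the control). They were kept for 24 h after infection, then for 20 h in differentiation medium, and were then collected. MyoD was precipitated from the MyoD cells and Myf5 from the Myf5 cells, with a different antibody for each factor, from chromatin that was crosslinked for 11 min and sonicated. Acetylated histone H4 (H4Ac) was precipitated from native chromatin of all 3 cell populations, digested for 18 min using 15 units of micrococcal nuclease. Mock precipitations with each factor antibody used GFP cells, which contain neither factor. There was 1 peak list per group. By their titles the MyoD and Myf5 lists each joined 2 replicates, so the spread between replicates could not be measured and no p-value is given. Sequencing depth is unknown from the lists. Markers of fibroblasts and of muscle could not be checked from peak positions without an annotation of the same build.

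MyoD and its relative Myf5 belong to the basic helix-loop-helix transcription factors. They bind the short DNA motif called the E-box together with an E-protein partner and direct cells into the skeletal muscle lineage. Both are able to start the muscle program when supplied to fibroblasts. Acetylation of the histone H4 tail is a mark of open and active chromatin.

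Strength was the authors' maximum read coverage within a peak. It ran from 27 to 2028 in the MyoD list and from 28 to 3723 in the Myf5 list. At the pairs the median was 50 for MyoD and 110 for Myf5. The headers of the lists name no scaling to depth and the antibodies differed, so a coverage of 1 list was not set against that of the other as a level. Each factor's coverage was instead turned into a percentile rank among the pairs, from 0 for the weakest to 100 for the strongest. The rank difference was the MyoD rank minus the Myf5 rank, in points.

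The orders of the factors were similar: across the pairs the Spearman correlation of the coverages was 0.820, given as a description over 41159 sites that share their DNA sequence. The middle 50% of rank differences lay between -9.13 and 9.44 points, the SD was 17.3 points, and 52.4% of pairs lay within 10 points of no difference. Differences of over 50 points were found at 1.05% of pairs, of which 182 were higher for MyoD and 250 higher for Myf5. The pairs therefore formed a single continuous spread with thin tails, not separate classes of MyoD sites and Myf5 sites.

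**Figure D1:**
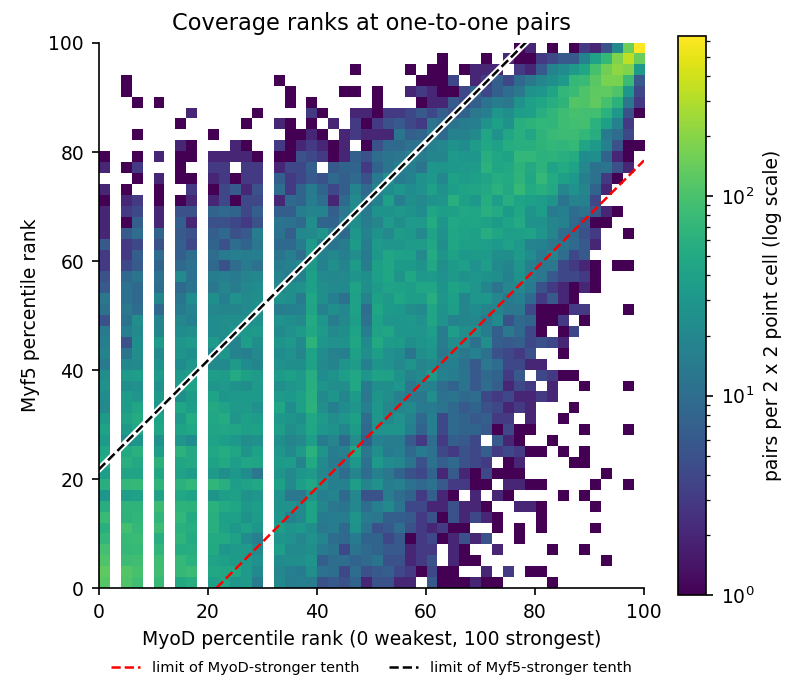
Percentile rank of Myf5 coverage (vertical) against that of MyoD coverage (horizontal) at the 41159 pairs, coloured by the number of pairs per cell of 2 by 2 points on a log scale; the dashed lines are the limits of the 10% of pairs at either end, and empty vertical stripes come from tied whole-number MyoD coverages. The cloud is narrow toward the upper right corner, where the end of the scale bounds it, and broad among weak and middling sites.

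The width of that spread depended on how strong a site was. Among pairs whose mean rank over both factors was above 80, the SD of the rank difference was 5.59 points. It was 23.8 points at mean ranks from 20 to 40, 21.1 points from 40 to 60, 13.5 points from 60 to 80, and 13.6 points below 20. Above 80 and below 20 the ends of the scale limit how large the difference can be, so the smaller SD there is in part a property of the scale. A rank step is also worth fewer reads where coverage is low. This part of the spread was approximated by carrying an exact 95% Poisson interval of each coverage to ranks, with maximum coverage treated as a count.

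For description, the 10% of pairs with the highest rank difference, 4117 sites, are called MyoD-stronger, the 10% with the lowest, 4116 sites, Myf5-stronger, and the other 32926 intermediate. The limits fell within the continuous spread: the pair just inside the MyoD-stronger limit differed by 21.54 points and the one just outside by 21.53 points, and at the Myf5-stronger limit the values were -21.78 and -21.76 points. The MyoD-stronger sites ran from 21.5 to 86.8 points with a median of 28.9, and the Myf5-stronger sites from -87.4 to -21.8 points with a median of -29.7. "Stronger" refers throughout to rank order and not to more protein on the DNA.

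The Poisson intervals of rank did not overlap at 3783 pairs on the MyoD side, 9.19% of all pairs, and at 3463 on the Myf5 side, 8.41% of all pairs. Of the MyoD-stronger sites 1955 (47.5%) were among them, and of the Myf5-stronger sites 1645 (39.97%). Below a mean rank of 20 only 15 pairs on the MyoD side and 0 on the Myf5 side had intervals apart, although 463 MyoD-stronger and 457 Myf5-stronger sites lay there. The rank difference of many weak sites was therefore within counting error, and at mean ranks over 80 most pairs with intervals apart were not in either 10% class, which held 5 and 12 sites there.

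By construction the classes differed in coverage. MyoD coverage had a median of 52 at MyoD-stronger, 54 at intermediate and 34 at Myf5-stronger sites, and Myf5 coverage a median of 63, 121 and 120. The ratio of Myf5 to MyoD coverage, whose overall level has no meaning without the depths, had a median of 1.18, 2.06 and 3.43. Both classes were thus made of sites of modest strength: their median mean ranks were 36.3 and 36.6, against 55.02 at intermediate sites. Peak width moves with coverage and is no independent readout. MyoD peaks had a median width of 646 bp at MyoD-stronger and 586 bp at Myf5-stronger sites, Myf5 peaks one of 766 and 896 bp, and the MyoD peak was the wider of the pair at 30.7% and 9.74% of sites.

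The sites with the largest rank differences on the MyoD side were led by chr7:53632842-53634571 (positions are those of the MyoD peak, build mm9). MyoD coverage there was 169, rank 92.2, and Myf5 coverage 42, rank 5.42, a difference of 86.8 points. The MyoD peak was 1730 bp wide and the Myf5 peak 486 bp, with centres 603 bp apart. An H4Ac peak with a coverage of 93 was called in MyoD cells and none in GFP or Myf5 cells. No gene was assigned to this position, and the lists cannot tell reads of the lentiviral MyoD copy from genomic ones. Whether such reads enter the values at this site was not tested. The site at chrX:9677696-9678354 had coverages of 106 for MyoD and 30 for Myf5, a difference of 82.0 points. At chr3:19857899-19858564 they were 137 and 46, a difference of 80.8 points. This was the only one of the 5 largest with H4Ac in all 3 cell populations, at coverages of 21 in GFP, 31 in MyoD and 40 in Myf5 cells. The other two, at chr2:12380986-12381918 and at chr3:83973993-83974523, had coverages of 161 and 51, and of 100 and 36, and no H4Ac peak.

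On the Myf5 side the extreme site lay at chr17:6474434-6474790, with a coverage of 29 for MyoD, rank 4.63, and 380 for Myf5, rank 92.1, a difference of -87.4 points. Its coverage in the Myf5 control was 27, where the mean over Myf5-stronger sites was 11.2. Next was a site at chr14:9130392-9130945, with coverages of 29 and 343 and a Myf5 control of 7. The others were at chr17:31997836-31998532 (30 and 322), at chr14:48595586-48596076 (31 and 313) and at chr2:156196688-156197611 (28 and 211). In all 5 the MyoD peak was within 4 reads of the lowest MyoD coverage in the list, and none overlapped an H4Ac peak in any of the 3 cell populations. Of all pairs, 78.8% likewise overlapped none.

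Among the 9769 pairs with a mean rank of at least 75 the SD was 6.89 points, and 43 were MyoD-stronger and 56 Myf5-stronger. The largest difference there was at chr9:110019632-110021319, with coverages of 235 for MyoD and 133 for Myf5, a difference of 36.6 points, and H4Ac coverages of 75 in GFP, 59 in MyoD and 42 in Myf5 cells. The most negative was at chr10:7837731-7838913, with 56 and 483, a difference of -38.4 points, and no H4Ac peak. Of the 5 most MyoD-shifted strong pairs 2 had an H4Ac peak, in every cell population, and of the 5 most Myf5-shifted ones 0 had any. These sites are too few to compare the sides. Of the 6626 pairs in the top 20% for both factors, 19.2% were acetylated in GFP cells.

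H4Ac was a readout that the ranking did not use. A site was counted as acetylated where its MyoD peak overlapped an H4Ac peak by at least 1 bp. In GFP cells, where neither factor was present, 14.4% of all MyoD peaks and 14% of the pairs were acetylated. The share was 14.9% (exact binomial 95% interval 13.9 to 16.1, 615 of 4117) at MyoD-stronger sites, near that background, and 7.29% (6.51 to 8.13, 300 of 4116) at Myf5-stronger sites. The difference was 7.65 percentage points (normal-approximation 95% interval 6.30 to 8.997). These intervals and those below cover counting error only, and neighbouring sites are not independent observations.

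The same order was seen in the cells carrying a factor. In MyoD cells 18.6% of all MyoD peaks and 18.2% of the pairs were acetylated. At MyoD-stronger sites the share was 17.1% (704 sites) and at Myf5-stronger sites 8.65% (356 sites), a difference of 8.45 points (7.02 to 9.89). In Myf5 cells 15.1% of all MyoD peaks and 14.8% of the pairs were acetylated, with 14.2% (583) at MyoD-stronger and 8.26% (340) at Myf5-stronger sites, a difference of 5.90 points (4.54 to 7.26). Myf5-stronger sites were thus less often acetylated than MyoD-stronger ones in all 3 populations, Myf5 cells included. At intermediate sites the shares were 14.8%, 19.5% and 15.7% in GFP, MyoD and Myf5 cells, so the shortfall from the background lay mainly on the Myf5 side. MyoD peaks were wider at MyoD-stronger sites, but with the same window of 500 bp at every pair, chosen after the data were seen, the differences were 7.29 points in GFP, 7.99 points in MyoD and 5.58 points in Myf5 cells. With ranks over the whole lists in place of the pairs they were larger, at 11.0, 19.3 and 11.5 points. The whole lists add 50737 Myf5 peaks that overlap no MyoD peak, with a median coverage of 39. Whether the sides were level in strength under these ranks was not measured.

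**Figure D2:**
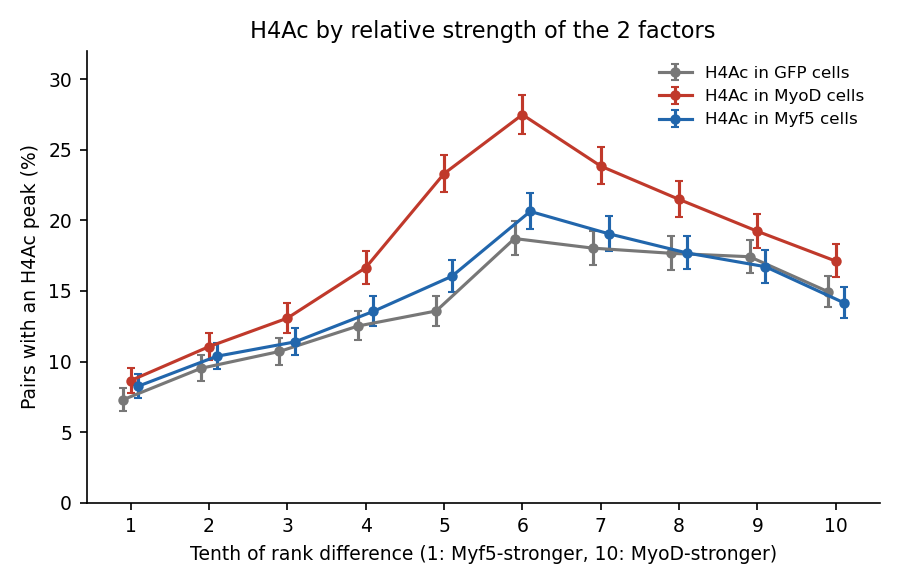
Percent of pairs overlapping an H4Ac peak (vertical) in GFP, MyoD and Myf5 cells, in 10 classes of about 4116 pairs ordered by rank difference (horizontal, class 1 Myf5-stronger, class 10 MyoD-stronger); bars are exact binomial 95% intervals. All 3 lines are lowest in class 1, at 7.29%, 8.65% and 8.26%, and highest in class 6, at 18.7%, 27.5% and 20.6%.

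Across 10 equal classes of the rank difference the share in GFP cells went from 7.29% in the most Myf5-shifted class to 18.7% in class 6, and was 14.9% in the most MyoD-shifted class. In MyoD cells it reached 27.5% and in Myf5 cells 20.6% in class 6. The middle classes also held the strongest sites, with median mean ranks of 79.3 and 76.3 in classes 5 and 6, against 36.6 in class 1 and 36.3 in class 10. Strength had therefore to be held level before the sides were compared.

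When the 10% classes were taken within 10 equal classes of the mean rank, 17.9% of MyoD-stronger and 7.20% of Myf5-stronger sites were acetylated in GFP cells, a difference of 10.7 points (9.33 to 12.1). In MyoD cells the shares were 22.3% and 9.42%, a difference of 12.9 points (11.4 to 14.5), and in Myf5 cells 17.4% and 8.69%, a difference of 8.66 points (7.22 to 10.1). Here MyoD-stronger sites stood above the share of all pairs in each list and Myf5-stronger sites below it. Among pairs whose Poisson intervals of rank were apart, the shares were 21.7% against 6.58% in GFP cells, 29.9% against 11.3% in MyoD cells and 22.1% against 8.72% in Myf5 cells. Those pairs were stronger sites, with median mean ranks of 68.5 and 72.0 against 48.3 over all pairs. Their shares are therefore not level in strength with those of all pairs.

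The difference grew with the strength of the site. At mean ranks below 20 the shares in GFP cells were 10.2% and 10.1%, a difference of 0.0855 points (-3.81 to 3.98). It was 5.60 points (3.66 to 7.54) at mean ranks from 20 to 40, 10.1 points (7.71 to 12.5) from 40 to 60, and 16.8 points (12.4 to 21.2) from 60 to 80, where 98 of 446 MyoD-stronger and 22 of 427 Myf5-stronger sites were acetylated. No difference was thus detectable at the weakest sites. Above 80 the classes held too few sites to compare.

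A grid then crossed the ranks of both factors. At pairs in the middle 20% of MyoD ranks (class 3 of 5), acetylation in GFP cells was 12.6%, 16.0%, 13.9%, 8.39% and 3.95% (1.46 to 8.39, 6 of 152) from the weakest to the strongest 20% of Myf5 ranks. At pairs in the middle 20% of Myf5 ranks it was 7.63%, 10.7%, 13.9%, 19.5% and 19.1% (12.7 to 26.9, 25 of 131) from the weakest to the strongest 20% of MyoD ranks. At a given middle MyoD rank, sites that stood high for Myf5 were thus less often acetylated, while at a given middle Myf5 rank sites that stood higher for MyoD were more often acetylated. This did not hold throughout the grid. In MyoD class 5 the shares in GFP cells were 19.1%, 22.9% and 19.2% from Myf5 class 3 to 5. In Myf5 class 1 they were 12.5%, 12.9%, 12.6% and 7.14% from MyoD class 1 to 4. The 6626 pairs in the top 20% for both had 19.2% in GFP, 33.6% in MyoD and 22.6% in Myf5 cells.

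**Figure D3:**
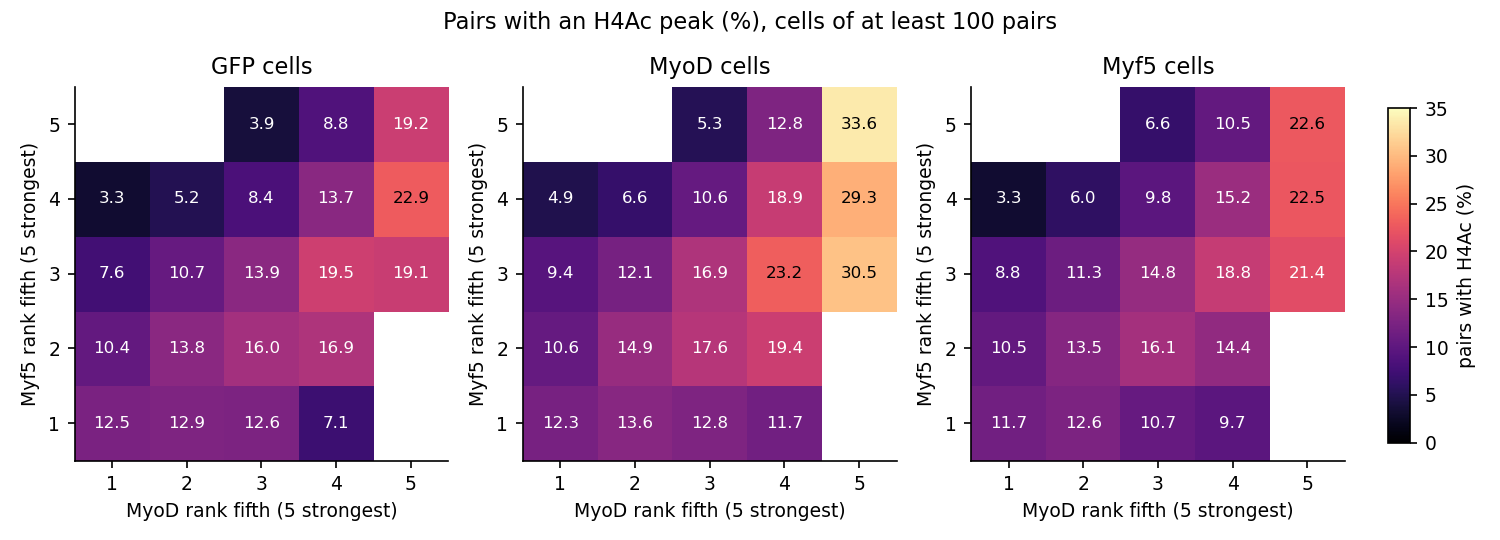
Percent of pairs with an H4Ac peak in GFP, MyoD and Myf5 cells (panels), by class of MyoD rank (horizontal) and of Myf5 rank (vertical), each class holding about 20% of pairs and 5 being strongest; cells with under 100 pairs are blank. Values rise to the right along most rows, and fall upward from row 2 in the columns of MyoD classes 2 and 3, to 3.95% in GFP cells for MyoD class 3 with Myf5 class 5.

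Sites acetylated in only 1 of the populations carrying a factor were counted next, since these bear on whether relative strength went with the cells in which a site was acetylated. Of the MyoD-stronger sites 186 had H4Ac in MyoD and not in Myf5 cells and 65 the reverse, a MyoD share of 74.1% (68.2 to 79.4). Intermediate sites had 1874 and 613, a share of 75.4%. Myf5-stronger sites had 87 and 71, a share of 55.1% (47.0 to 63.0). The difference between the ends was 19.0 points (9.58 to 28.5). The interval of MyoD-stronger sites included the share of intermediate ones. With strength held level, in classes taken within those of the mean rank, the shares were 81.2% (76.6 to 85.3, 268 of 330) at MyoD-stronger, 74.2% at intermediate and 58.9% (51.1 to 66.4, 99 of 168) at Myf5-stronger sites, so both sides then departed from the intermediate share, in opposite directions. The interval of all Myf5-stronger sites, 47.0 to 63.0, includes an even split but lies below the 74.1% of all pairs. In some small subsets of them H4Ac in Myf5 cells alone was the more frequent. MyoD cells alone accounted for 6 of 21 such sites in the lowest GC bin, for 7 of 22 at mean ranks below 20 and for 4 of 10 at mean ranks from 60 to 80. MyoD-stronger sites in the lowest GC bin were also near an even split, with 20 of 41. In every other GC bin MyoD cells alone were the more frequent at Myf5-stronger sites. So they were at mean ranks from 20 to 40 (49 of 79) and from 40 to 60 (26 of 46).

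H4Ac in the presence of a factor was then split by the state in GFP cells. Of sites with no H4Ac peak in GFP cells, 6.88% of all pairs had one in MyoD cells and 4.11% in Myf5 cells. In MyoD cells the gain was 4.85% (170 of 3502) at MyoD-stronger and 3.17% (121 of 3816) at Myf5-stronger sites, a difference of 1.68 points (0.780 to 2.59), with both classes under the share of all pairs. In Myf5 cells it was 3.03% and 2.59%, a difference of 0.433 points whose interval, -0.327 to 1.19, includes 0.

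With strength held level, the gain in MyoD cells was 7.57% at MyoD-stronger, 7.21% at intermediate and 3.80% at Myf5-stronger sites, a difference between the ends of 3.77 points (2.70 to 4.85). In Myf5 cells it was 4.04% and 3.04%, a difference of 0.991 points (0.135 to 1.85), which then lay above 0. The difference in gain varied with the strength of the site, and most of its intervals at mean ranks below 40 included 0. In MyoD cells the difference was -1.002 points (-3.29 to 1.29) at mean ranks below 20, -0.361 points (-1.52 to 0.798) from 20 to 40, 3.52 points (1.71 to 5.34) from 40 to 60 and 9.23 points (5.65 to 12.8; 39 of 348 against 8 of 405) from 60 to 80. In Myf5 cells it was -3.42 points (-5.80 to -1.05; 6 of 416 against 20 of 411) below 20. That value rests on few sites, and below 20 only 15 pairs on the MyoD and 0 on the Myf5 side had rank intervals apart. The difference in Myf5 cells was 0.354 points (-0.655 to 1.36) from 20 to 40, 1.05 points (-0.374 to 2.47) from 40 to 60 and 3.28 points (0.403 to 6.15) from 60 to 80.

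Of the pairs acetylated in GFP cells, 87.4% were also acetylated in MyoD cells and 80.2% in Myf5 cells. In MyoD cells the share was 86.8% (534 of 615) at MyoD-stronger sites, near that of all pairs, and 78.3% (235 of 300) at Myf5-stronger sites, a difference of 8.50 points (3.12 to 13.9). In Myf5 cells 77.6% and 80.3% were, both near that of all pairs, with a difference of -2.77 points (-8.35 to 2.80).

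The difference between the classes was thus present without a factor, at 7.65 points in GFP cells, beside 8.45 points in MyoD and 5.90 points in Myf5 cells. How these compare in size depended on the ranking and on strength, and was not tested: with whole-list ranks they were 11.0 (9.56 to 12.5), 19.3 (17.7 to 21.0) and 11.5 points, and at mean ranks from 60 to 80 they were 16.8, 23.5 and 16.3 points. Seen from the chromatin side, the 32440 pairs with no H4Ac in any population had a median rank difference of -0.400 points. The 4392 pairs acetylated in all 3 had 2.44 points, with 10.3% MyoD-stronger and 4.78% Myf5-stronger. The 659 pairs acetylated in GFP and MyoD cells had 3.54 points, with 12.4% and 3.79%. The 1488 pairs acetylated in MyoD cells alone had 0.485 points and the 508 acetylated in Myf5 cells alone 0.193 points.

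Single sites show these states by where an H4Ac peak was called. Depth is unknown, so H4Ac coverages of different populations, here and above, are not levels to set against each other. Among MyoD-stronger sites with H4Ac in MyoD cells and none in GFP cells, the highest H4Ac coverage was at the chromosome 7 site described above. The limit given there on lentiviral reads applies to its H4Ac peak as well. Next was a site at chrX:135765748-135766275, with factor coverages of 50 for MyoD and 64 for Myf5. Its H4Ac coverages were 63 in MyoD and 21 in Myf5 cells. A site at chr4:39505883-39506849 had factor coverages of 284 and 74, a difference of 69.5 points, and H4Ac coverages of 47 in MyoD and 20 in Myf5 cells. Among Myf5-stronger sites with H4Ac in Myf5 cells and none in GFP cells, one at chr1:130297088-130297478 led, with factor coverages of 38 and 120 and H4Ac coverages of 34 in MyoD and 167 in Myf5 cells. One at chr5:34906380-34907442 had factor coverages of 33 and 151, a difference of -48.2 points, and an H4Ac coverage of 76 in Myf5 cells alone.

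Base composition also differed between the ends. The lists assign each peak to 1 of 5 bins of GC content, and the bin was the same in both lists at 98.6% of pairs. The lowest bin, up to 40% GC, held 23.5% (22.2 to 24.8, 966 sites) of MyoD-stronger, 14.2% of intermediate and 11.9% (11.0 to 13.0, 491 sites) of Myf5-stronger sites, a difference of 11.5 points (9.90 to 13.2). The bins from 40 to 45% and from 45 to 50% GC held fewer MyoD-stronger than Myf5-stronger sites, with differences of -4.84 and -6.49 points. From 50 to 55% the difference was -1.19 points, with an interval that includes 0. Above 55% it was 0.995 points (0.380 to 1.61), with 106 against 65 sites.

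The relation of rank difference to GC content was therefore not one-way. The median rank difference was 1.87, -0.238, -0.205, 0.390 and 4.08 points from the lowest to the highest bin. MyoD-stronger sites made up 15.7% of the lowest bin, 9.48%, 8.37% and 8.87% of the next, and 11.5% of the highest. Myf5-stronger sites made up 8.00%, 10.8%, 10.3%, 9.75% and 7.04%. The tilt to low GC was steepest at the far end: of the 182 pairs higher for MyoD by over 50 points, 99 (54.4%, interval 46.9 to 61.8) were in the lowest bin, against 28 (11.2%) of the 250 pairs higher for Myf5 by over 50 points. These far pairs were seldom acetylated on either side, with 6.04% and 4.00% in GFP cells.

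**Figure D4:**
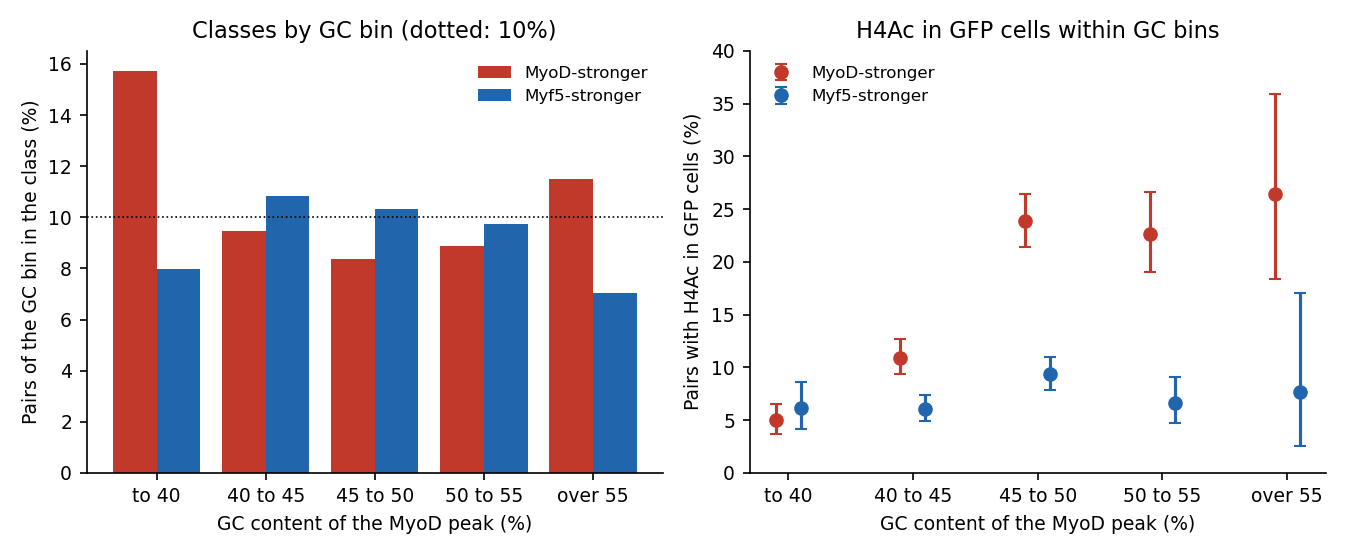
Left, percent of the pairs of each GC bin (horizontal, percent GC of the MyoD peak) that were MyoD-stronger or Myf5-stronger, with a dotted line at 10%; right, percent of the sites of each class with H4Ac in GFP cells within each bin, with exact binomial 95% intervals. MyoD-stronger sites make up 15.7% of the lowest bin, and from 40% GC upward the red points lie above the blue ones.

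Low GC content and H4Ac seldom coincided at MyoD-stronger sites, as at the other pairs. In the lowest GC bin, H4Ac in GFP cells was found at 4.97% of MyoD-stronger and 6.11% of Myf5-stronger sites, a difference of -1.14 points (-3.66 to 1.38). In the next bins the differences were 4.85 points (2.84 to 6.86), 14.5 points (11.6 to 17.4; 23.9% against 9.33%), 16.0 points (11.8 to 20.3; 22.7% against 6.63%) and 18.7 points (8.12 to 29.3). Of MyoD-stronger sites 37.2% were in the lowest GC bin or acetylated in GFP cells, against 28.0% of intermediate and 18.5% of Myf5-stronger sites, and 1.17%, 0.981% and 0.729% were both. Of the 4117 MyoD-stronger sites, 2584 had neither feature.

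The centres of the paired peaks lay close together in all classes, in part by construction, since pairs had to overlap. A centre is the midpoint of a called peak and not its point of highest coverage. The distance, and its difference between the classes, is therefore not independent of peak width, which moves with coverage. The distance between peak centres had a median of 72 bp at MyoD-stronger, 76.5 bp at intermediate and 79 bp at Myf5-stronger sites. Centres lay within 100 bp at 62.7% (61.2 to 64.2) of MyoD-stronger and 59.0% (57.4 to 60.5) of Myf5-stronger sites, a difference of 3.73 points (1.62 to 5.83). This difference was smaller than those of H4Ac and GC content. The 5 intervals within GC bins included 0 in all but the bin from 50 to 55% GC, and with pairs that overlapped by at least 50% of each peak it was 0.761 points.

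Control coverage at the same positions, for which the headers name no sample, differed little. The MyoD control averaged 5.01 ± 2.03 (SD over 4117 sites) at MyoD-stronger and 4.71 ± 1.78 (SD over 4116 sites) at Myf5-stronger sites, with a median of 5 in both. The Myf5 control averaged 10.6 ± 2.94 and 11.2 ± 2.87, with a median of 11 in both. Each control was thus slightly higher where its own factor ranked higher, by under 1 read on average, while MyoD coverage differed between the classes by a median of 52 against 34 reads and Myf5 coverage by 63 against 120. At the pairs with differences of over 50 points the MyoD control averaged 5.54 on the MyoD and 4.48 on the Myf5 side, and the Myf5 control 10.2 and 11.4. The part of control coverage in the rank differences was measured by subtracting it before ranking, which gave an H4Ac difference in GFP cells of 9.62 points and one of the lowest GC bin within its main interval. No pair overlapped a peak of either mock list. Within 10000 bp of one lay 10 MyoD-stronger (0.243%) and 15 Myf5-stronger (0.364%) sites, both near the 0.284% (117) of all 41159 pairs.

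MyoD-stronger sites had fewer Myf5 peaks around them, and their nearest other MyoD peak was also farther away. Another Myf5 peak lay within 1000 bp of 19.3% (18.1 to 20.5) of MyoD-stronger, 24.9% of intermediate and 23.7% (22.4 to 25.02) of Myf5-stronger sites, and the nearest one was at a median of 4611, 3255 and 3210 bp. Another MyoD peak lay within 1000 bp of 8.91%, 10.4% and 8.31%, and the intervals of the outer classes, 8.06 to 9.83 and 7.48 to 9.19, overlapped. The nearest other MyoD peak was at a median of 10325, 8095 and 9108 bp in the same order. The wider spacing at MyoD-stronger sites was thus not particular to Myf5 peaks. The Myf5 list is the longer one, so distances to Myf5 peaks were compared between classes only and not with distances to MyoD peaks.

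Rank differences also varied along the genome. Chromosome medians ran from -1.53 points on chromosome 17 to 1.78 points on chromosome 10. On chromosome 10, 13.1% of 2902 pairs were MyoD-stronger and 7.31% Myf5-stronger, whereas on chromosome 14, with a median of -1.13 points, 8.60% of 1489 pairs were MyoD-stronger and 14.0% Myf5-stronger. Among 363 windows of 5 Mb with at least 50 pairs, medians between the 10th and 90th percentiles ran from -2.60 to 2.99 points. The lowest, -9.91 points over 75 pairs, was at chr4:10000001-15000000 (mm9), and the highest, 8.40 points over 59 pairs, at chr2:135000001-140000000. A window at chr10:120000001-125000000 had 7.43 points over 89 pairs. Whether such windows recur between replicates was not tested.

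**Figure D5:**
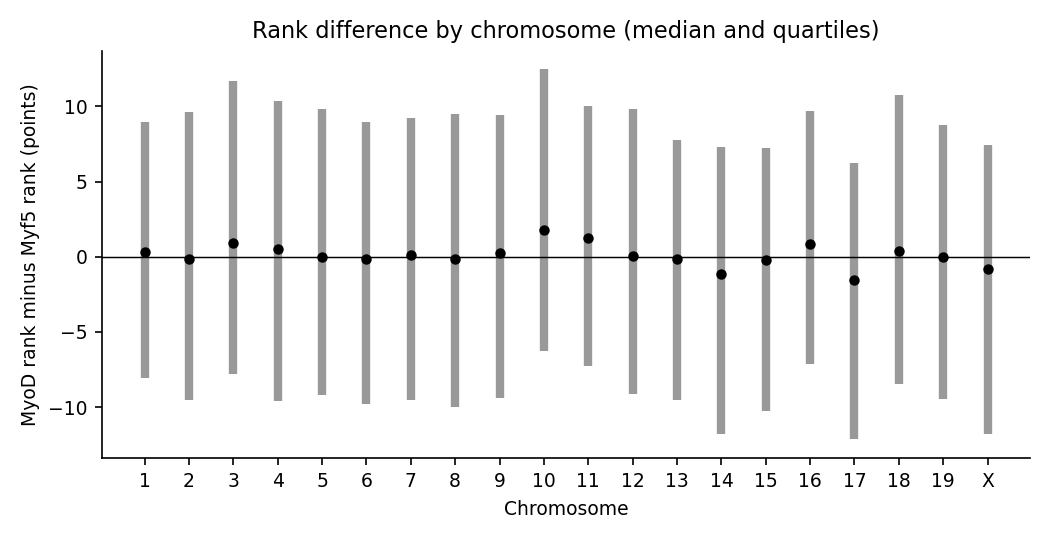
Rank difference (MyoD rank minus Myf5 rank, points, vertical) by chromosome (horizontal): dots are medians over the pairs of a chromosome and grey bars run between the quartiles. All medians lie between -1.53 and 1.78 points, far inside the quartile bars, with chromosome 10 highest and chromosome 17 lowest.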

How the data were processed

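The deposited lists give, per the file headers, each peak's position, width, GC bin, maximum coverage (signal), coverage cutoff and p-value, with a control coverage and a control score. The authors' p-values reached at most 8.56e-06 in the MyoD and 8.10e-06 in the Myf5 list. Some control p-values (taken as a score in the deposited lists) exceed 1 and were not used. CASAVA 1.8.2 and BWA 0.7.5 were used, per the submitters' processing notes, which name the builds mm9 and hg19 without a role. Positions were read as mm9, since peaks reach 197068167 on chromosome 1, beyond every GRCm38 gene in the RefSeq table. For the peak caller and the joining of replicates: not given in the sources used here.

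Pairs, ranks (ties at their mean), classes and overlaps were computed with Python 3.11.15, numpy 2.4.6, pandas 2.3.3 and scipy 1.17.1, figures with matplotlib 3.10.9, and the pairing was tested on simulated lists. Shares have exact binomial (Clopper-Pearson) intervals and differences normal-approximation ones, at a confidence level of 0.95. Named positions are the 5 largest and smallest rank differences, the same at mean ranks of at least 75, the 5 with the highest H4Ac coverage among MyoD-stronger or Myf5-stronger sites with H4Ac in that factor's cells and none in GFP cells, and the pairs at the class limits; the strongest of these are printed. Alternatives varied the pairing, the ranking, the classes and the H4Ac rule. The 3 inputs were not analysed here. No genes or sequences are given, since only a GRCm38 annotation was used here. The members and lists were chosen with earlier results of these data known.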

Additional observations from a re-analysis of the deposited data

How the results depend on the processing

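The H4Ac differences between MyoD-stronger and Myf5-stronger sites kept their direction, with intervals above 0, in all 12 alternatives: 5.999 to 15.1 points in GFP, 6.02 to 19.3 points in MyoD and 4.35 to 13.4 points in Myf5 cells, and 12.2 to 32.9 points for the MyoD share of sites acetylated in 1 factor's cells. The lowest GC bin kept its direction in 9 of 9 alternatives (0.854 to 12.4 points, 8 intervals above 0), as did centres within 100 bp (0.761 to 12.9 points, 6 above 0). In the order GFP, MyoD and Myf5 cells, the H4Ac differences were 11.0, 19.3 and 11.5 points with ranks over the whole lists, 9.62, 10.3 and 7.34 points after subtracting control coverage, 10.7, 12.9 and 8.66 points within 10 classes of the mean rank, 15.1, 18.6 and 13.4 points with Poisson intervals apart, 14.4, 16.2 and 11.0 points in the 20584 pairs of the stronger 50%, and 5.999, 6.02 and 4.35 points with H4Ac peaks of at least 1.5 times their cutoff. With every MyoD peak set against its strongest Myf5 peak they were 6.24 points in GFP and 6.59 points in MyoD cells, and centres differed by 12.9 points. Whole-list ranks gave 32.9 points for the MyoD share of sites acetylated in 1 factor's cells, 9.17 points for the lowest GC bin and 0.953 points for centres. Whether the sides were level in strength under whole-list ranks was not measured. A pair overlap of at least 50% of each peak gave 0.761 points for centres. For the lowest GC bin the difference was 0.854 points with ranks taken within GC bins, which removes most of it by construction, 7.96 points in the outer 20% classes, 9.81 points with Poisson intervals apart and 8.47 points in the stronger 50%. The cause of the other shifts was not tested. No paired analysis was possible because each group had 1 list. Sequencing depth is unknown, so its part in these values was not tested; below a mean rank of 20, where the scale also bounds the rank difference, 15 pairs had rank intervals apart. Pairs require both peaks to be called, so sites bound under the threshold by 1 factor are not covered, and coverage that already joins replicates cannot show how far ranks vary between them.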

Other observations

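Neighbouring pairs had weakly similar rank differences. The Spearman correlation of a pair with the next one along the chromosome was 0.137 over 2018 gaps of under 1000 bp and 0.0880 over 4751 gaps of 100000 to 1000000 bp, as a description of pairs that share the same libraries. Where the gap was under 1000 bp, the next pair was MyoD-stronger after 14.1% (24 of 170) of MyoD-stronger pairs, against 8.42% after any pair.

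Peaks in multiple overlaps stood outside the ranking. The 2729 such MyoD peaks had a median coverage of 54 and width of 734 bp, and the 1891 such Myf5 peaks a median coverage of 144 and width of 1504 bp. The 1127 MyoD peaks with no Myf5 peak had a median coverage of 32, and the 50737 Myf5 peaks with no MyoD peak one of 39.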
